A study of Drosophila melanogaster with 15 samples.

Results

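Genes that lie wholly inside an intron of another gene were collected from isoform assemblies of *Drosophila melanogaster*. Members were chosen by the deposited positions alone: a gene with a FlyBase ID entered when its span, pooled over all isoforms of 3 assemblies, fell inside a single intron of at least 1 isoform of another gene with a FlyBase ID. This rule selected 1069 of 11848 genes (9.02%, 95% Wilson interval 8.52 to 9.55). Where several introns held a gene, the shortest was taken as its host intron, which gave 538 host genes and 629 host introns. Because nesting itself was the rule, it is described here without a test, and tests were kept to strand, exon number and tissue.

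All samples were untreated w1118 wild-type flies, and full-length cDNA was read on Oxford Nanopore devices in 15 libraries. There were 6 libraries of adult heads at an age of 3 days, of which 2 were labelled as not size-selected, and 3 of ovaries dissected from virgin females of the same age, with 20 ovaries in each. Whole embryos, 50 in each replicate, were sampled from 14 to 16 h (3 libraries) or from 18 to 20 h (3 libraries) of development. Apart from those 2 head libraries, the protocol selected long cDNA in all libraries, so embryos and ovaries had only size-selected ones. The deposited assemblies, 1 per tissue, pooled all replicates and both embryo ages and held exon positions without read numbers, so neither the depth behind an isoform nor the spread between replicates could be computed. Differences between tissues are therefore descriptions, and the Wilson intervals cover only the sampling of genes. Heads held 74482 isoforms, embryos 20701 and ovaries 13398, and the study states that heads were read most deeply and ovaries least, so absence of a transcript cannot be told apart from lack of reads or, in embryos and ovaries, from the loss of short cDNA.

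Tissue markers followed the labels in part. Of 6 head markers, 6 were found in heads, 6 of 6 embryonic markers in embryos and 5 of 6 ovarian markers in ovaries, where *nos* was missing. Embryonic markers did not separate embryos from heads, since all 6 were found in heads too (*grh* with 18 isoforms there and 13 in embryos, *verm* with 23 and 12), and 4 of the 6 head markers were found in embryos. Heads also held all 4 testis markers (*dj*, *Mst87F*, *ProtA*, *ProtB*) and all 3 gut markers (*alphaTry*, *betaTry*, *Jon65Aiv*), with 2 to 5 isoforms each, while embryos held none of the testis markers and 1 of the gut markers and ovaries held none of either. The part of such transcripts in the head values below was not tested.

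A nested gene is a separate transcription unit within the intron of a host. When both lie on the same strand, the host's primary transcript runs through the nested gene, and the nested gene's own splice sites and poly(A) signal are present in the host's intron. When they lie on opposite strands, they are transcribed in opposite directions, and the host's primary transcript is antisense to the nested mRNA. The *Drosophila* genome is known for many such pairs, with *Pcp* inside *Gart* among the classical cases.

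The ends of a few host introns are shown first, so that annotated and unannotated ones can be compared by their splice sites. Each line gives the last 10 exon bases and first 20 intron bases at the 5′ splice site, or the last 20 intron bases and first 10 exon bases at the 3′ splice site, read 5′ to 3′ on the host's strand of dm6 from the RefSeq copy of the genome, with the first or last 2 intron bases in capitals. The first 3 introns are annotated in Ensembl release 115, and the last 3 are not.
*osp* 5′ splice site, chr2L:14636059-14636088, minus strand: cagaacaaagGTgagttctaacgaatatga
*osp* 3′ splice site, chr2L:14611907-14611936, minus strand: gtcttctttttcaattgtAGcgctggcaaa
*Gart* 5′ splice site, chr2L:7023509-7023538, minus strand: ggatttcgagGTaggttcgttacgccgacc
*Gart* 3′ splice site, chr2L:7019373-7019402, minus strand: tttaatcgcctcttttaaAGgccattgcta
*Rh4* 5′ splice site, chr3L:16861862-16861891, minus strand: ttcgtgccagGTgagattgtgtgtgtgttt
*Rh4* 3′ splice site, chr3L:16853230-16853259, minus strand: tcacttttatgcatttccAGagggctacct
*14-3-3epsilon* 5′ splice site, chr3R:17947589-17947618, plus strand: ctacaaaaagGTaaaatatttcaataacca
*14-3-3epsilon* 3′ splice site, chr3R:18247413-18247442, plus strand: ttgttatgtcctctttacAGaaatggtgga
*scrib* 5′ splice site, chr3R:26545151-26545180, plus strand: tcacgcaatgGTaagtgccaagtatccgcc
*scrib* 3′ splice site, chr3R:26826556-26826585, plus strand: tttcacgctttttgttgcAGtaaattactt
*Lk6* 5′ splice site, chr3R:11858667-11858696, minus strand: ttcataaaagGTaagcaatattagtaacat
*Lk6* 3′ splice site, chr3R:11756483-11756512, minus strand: ttatttggttgtttttacAGacggacagaa
All 12 sites have the canonical bases. Over all host introns, 625 of 629 (99.4%) began with GT and ended with AG, so the bases at the ends did not separate annotated from unannotated introns.

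The members fell into 3 kinds by what the annotation says of the host intron. For 801 members (74.9%), the host intron is annotated, with both splice sites at the same positions. For 26 members it is not annotated but lies inside the host's annotated span. For the other 242 members (22.6%), the intron is not annotated and reaches past the end of the host gene as annotated. These 242 members sat in only 49 introns of 47 hosts, about 4.94 members per intron against 1.44 in the 555 annotated host introns. Of these 49 introns, 45 (91.8%, 80.8 to 96.8) occurred in a single isoform and 42 were found in heads only. In contrast, 53 of the 555 annotated host introns (9.55%, 7.38 to 12.3) rested on a single isoform.

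Introns that reached past the host were also longer, with a median of 51236 nt and a maximum of 299834 nt, against a median of 10530 nt and a maximum of 126467 nt for annotated host introns. In all 49 of them both ends were annotated splice sites, and in 48 exactly 1 end belonged to the host while the other belonged to another gene. These 48 introns thus joined annotated exons of different genes within the same isoform. Only 11 of the 242 members also lay in a longer annotated intron. How these isoforms arose was not tested, and the main results below are given for annotated introns as well.

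**Figure D1:**
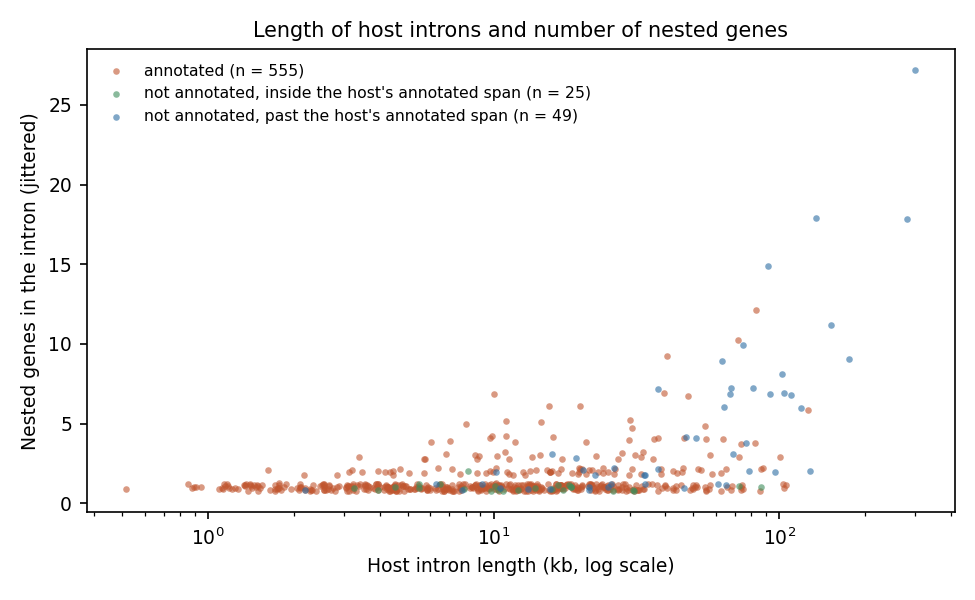
Length of each host intron (kb, log scale) against the number of nested genes it holds (whole numbers, jittered for display), coloured by the annotation of the intron. Introns that reach past the annotated end of the host lie to the right and reach 27 nested genes, while annotated host introns reach 12.

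The hosts with the most nested genes were mostly of the last kind. A single 299834-nt intron of *14-3-3epsilon*, a signalling adaptor whose annotated span is 8020 nt, held 27 members, among them the glial transcription factor *repo*, the FGF receptor *htl* and the tendon cell factor *sr*, and was found in 1 of 41 isoforms, in heads. *drpr*, the engulfment receptor Draper, held 25 members in 2 introns of 1 isoform each. The cell adhesion gene *Nrg* held 19, of which 18 lay in a 134160-nt intron of 1 of 39 isoforms that spans chorion genes such as *Cp36* and *Cp38*. The polarity gene *scrib* held 18, including 8 cuticle genes of the Tweedle family, in 1 of 136 isoforms.

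Other hosts with many members used annotated introns. *mod(mdg4)*, a BTB gene known for trans-splicing, held 15 members, all of them annotated as separate pre-mod(mdg4) transcription units that provide its alternative 3′ exons. *Flo2*, which encodes a flotillin, held 13 members in 2 annotated introns, and the non-coding gene *lncRNA:CR44999* held 11 in 2 annotated introns. *Ank* on chromosome 4, which encodes an ankyrin, held 13 members and *unc-119* held 11, of which 0 and 4 lay in annotated introns. *ND-15*, a subunit of respiratory complex I, held 9 members in 1 annotated intron of 40554 nt that was found in 1 of 18 isoforms. *Sesn* and *tn* also held 9 members each, none in an annotated intron. At the other end, 346 hosts held 1 member each and 103 held 2. Chromosome 4 was the extreme, with 23 of its 78 genes among the members and none of them in an annotated intron.

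Some pairs known from textbooks were among the members. *Adh*, the alcohol dehydrogenase gene, and its neighbour *Adhr* lay on the opposite strand in a 24162-nt intron of *osp* that 27 of 30 *osp* isoforms used. Heads and embryos each held 1 isoform of *Adh* and ovaries held 0, while *Adhr* had 11, 0 and 1 in that order and *osp* had 12, 13 and 5. The host was thus present in all 3 assemblies and each nested gene in 2. Both spans began at the same position on the plus strand, with *Adh* at chr2L:14615553-14617402 and *Adhr* at chr2L:14615553-14618902 (dm6), so *Adhr* isoforms ran through *Adh*.

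*Pcp*, a pupal cuticle protein gene, lay on the opposite strand in the first intron of the purine synthesis gene *Gart* (4146 nt), which all 13 *Gart* isoforms used. *Pcp* had 1 isoform, in heads, whereas *Gart* had 9 there and 2 in each of the other assemblies. For *sina* and *Rh4*, which act in the R7 photoreceptor as a ubiquitin ligase and a rhodopsin, the ubiquitin ligase gene was the nested one. *sina* had 5 isoforms in heads and 3 in ovaries but 0 in embryos, and *Rh4* had 2 in heads and none elsewhere. The nested gene was therefore found in a tissue in which its host was not. The same 8642-nt intron of *Rh4* also held *CG13029* and *sinah*, each with 1 isoform in heads.

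The other pairs did not yield members. *VAChT*, the vesicular acetylcholine transporter, is known to lie in an intron of *ChAT*, but its pooled span began at the same position as that of *ChAT* and was not inside an intron. It had 3 isoforms in heads and 2 in embryos. *Sgs4*, *Pig1*, *ng1*, *ng2* and *ng3*, which are known as larval salivary gland genes in *dnc*, had no isoform in any assembly, while *dnc* had 59, 12 and 5 in heads, embryos and ovaries.

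**Figure D2:**
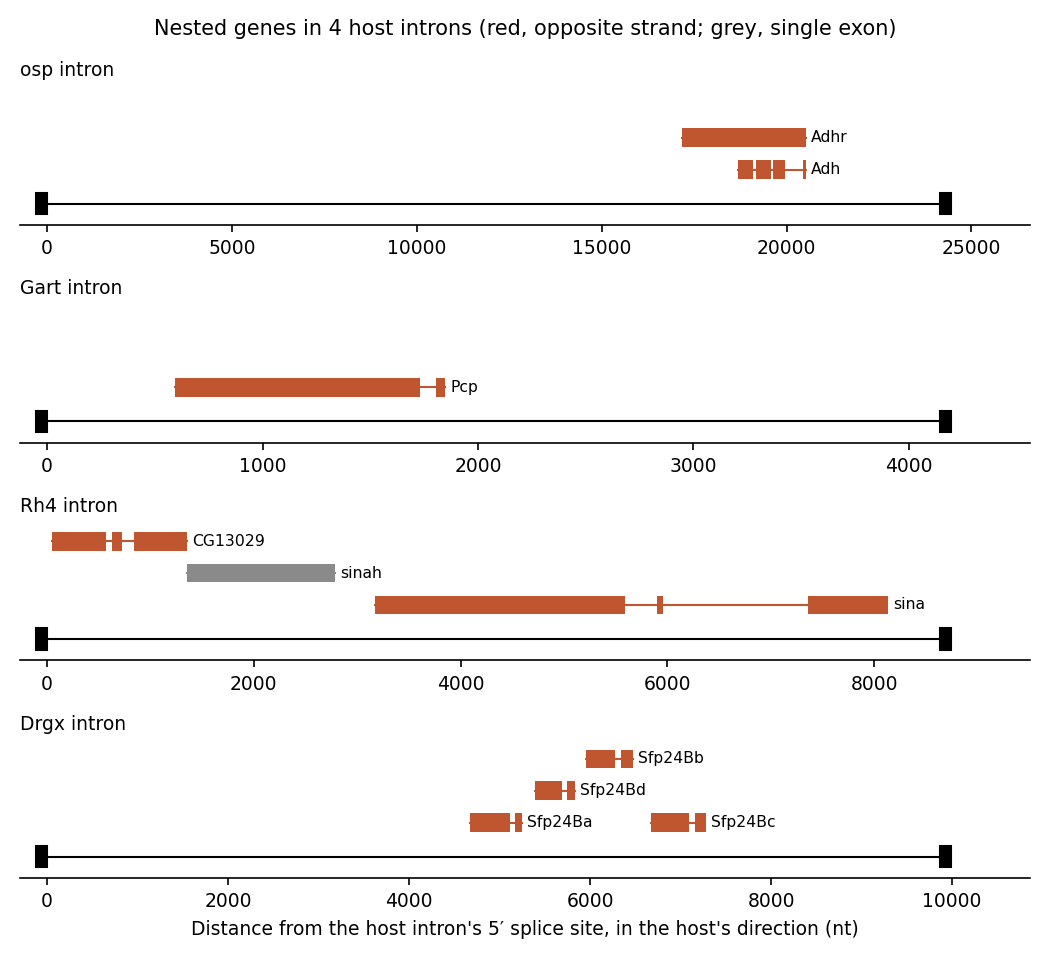
Nested genes in introns of *osp*, *Gart*, *Rh4* and *Drgx*. The horizontal axis is the distance in nt from the 5′ splice site of the host intron in the host's direction, black boxes mark the flanking host exons (not to scale), and coloured boxes are the nested gene's exons pooled over isoforms, red for genes spliced on the opposite strand and grey for the single-exon *sinah*. All 9 spliced genes run against the host.

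Most nested genes lay on the opposite strand to the host: 698 of 1031 with isoforms on 1 strand (67.7%, 64.8 to 70.5), against 51.4% (50.3 to 52.4) of 8245 pairs of neighbouring genes that are not nested. A further 38 members had isoforms on both strands and were left out. Same-strand transcripts that carried the host's gene ID could not enter as members. Their part in this and the following opposite-strand shares was not tested. The strand in the assemblies was informative only for spliced genes. All 557 opposite-strand and all 209 same-strand spliced members with an annotation were on their annotated strand, whereas single-exon members were on it in 77 of 138 cases (55.8%) when opposite to the host and in 64 of 122 (52.5%) when on the same strand. The same held for single-exon genes that are not nested (517 of 1003, 51.5%).

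With spliced members only, and the annotated strand of each, the excess was larger in annotated introns and missing in introns that reached past the host. Of 545 spliced members in annotated introns, 438 (80.4%, 76.8 to 83.5) were opposite to the host. Of 208 spliced members in introns that reached past the host, 105 (50.5%, 43.7 to 57.2) were, close to the share in neighbouring pairs. That share, however, took the assemblies' strand and included single-exon genes. In unannotated introns inside the host, 19 of 22 spliced members (86.4%, 66.7 to 95.3) were opposite. Single-exon members were divided about evenly by their annotated strand in annotated introns too, with 129 of 253 opposite (51.0%, 44.9 to 57.1). These splits were chosen after the values were seen and carry no test.

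**Figure D3:**
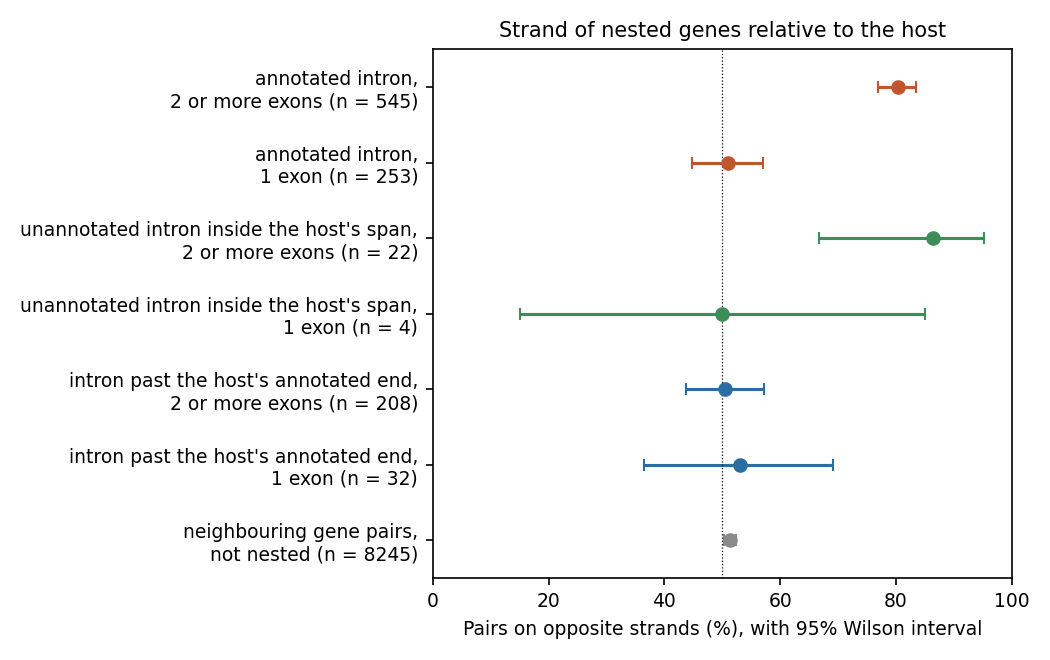
Share of nested genes on the strand opposite to the host (%), by kind of host intron and exon number and with the annotated strand of the nested gene, and of neighbouring gene pairs that are not nested. Points are shares, bars are 95% Wilson intervals and the dotted line marks 50%. Neighbouring pairs took the assemblies' strand and included single-exon genes. Spliced members in annotated introns (80.4%) and in unannotated introns inside the host (86.4%) lie far above 50%, and the other groups lie between 50% and 53.1%.

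Nested genes had few exons. They were also short, which the rule favours, since a member must fit into an intron and a host must be longer than the member. Their median span was 1670 nt (quartiles 988 and 3127 nt), against 2932 nt for genes that are not nested and 28381 nt for hosts. Only single-exon isoforms were found for 291 of 1069 members (27.2%, 24.6 to 29.97), against 1210 of 10779 genes that are not nested (11.2%, 10.6 to 11.8). In annotated introns the share was 255 of 801 (31.8%, 28.7 to 35.1), while in introns reaching past the host it was 32 of 242 (13.2%, 9.52 to 18.1), close to that of other genes. The largest exon number of a gene had a median of 2 in nested genes and 8 in hosts.

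Single-exon genes were more frequent among same-strand members. They made up 123 of 333 members on the host's strand (36.9%, 31.9 to 42.2) and 139 of 698 on the opposite strand (19.9%, 17.1 to 23.0). The odds ratio of opposite against same strand was 0.42 (95% interval 0.31 to 0.57, two-sided Fisher's exact test, p = 2.91e-08 after Benjamini-Hochberg adjustment over 5 tests). Since the assemblies' strand of single-exon members was uninformative, this ratio is partly set by that strand. With the annotated strand instead, the shares were 39.8% and 20.8% (odds ratio 0.40, Fisher's exact test, adjusted p = 5.47e-10). Members that share a host are not independent, and with the annotated strand and 1 member per host the ratio was 0.31 (0.20 to 0.47, Fisher's exact test, adjusted p = 4.99e-08). With annotated introns only and the assemblies' strand, the shares were 50.0% of 216 same-strand and 22.6% of 580 opposite-strand members. The odds ratio there was 0.29 (0.21 to 0.41, Fisher's exact test, adjusted p = 1.28e-12). In introns that reached past the host, 17 of 32 single-exon and 105 of 208 spliced members were opposite by the annotated strand.

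**Figure D4:**
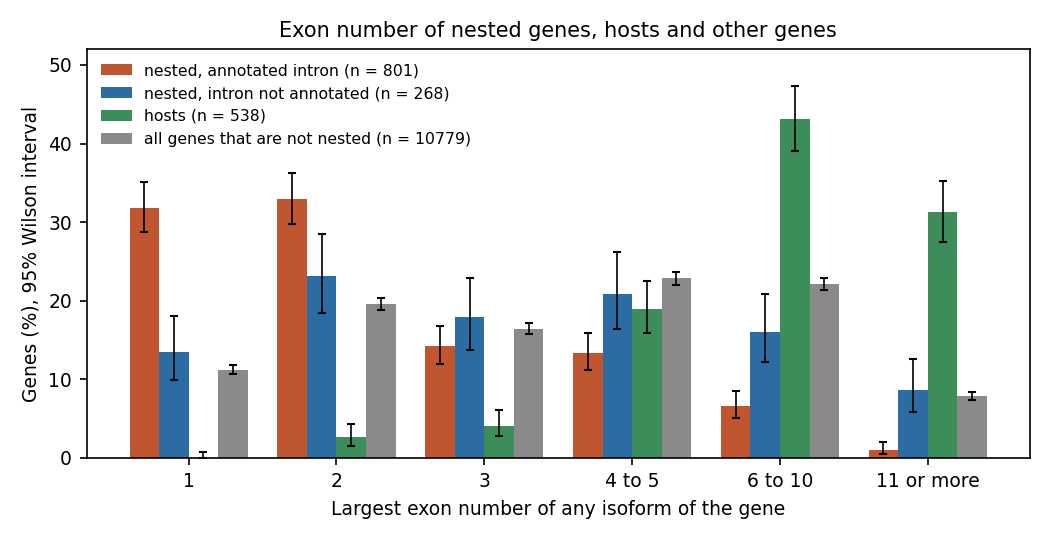
Genes by the largest exon number of any of their isoforms (horizontal axis) as a share of their group (%, vertical axis), for nested genes in annotated and in other introns, hosts and genes that are not nested. Bars are shares and whiskers are 95% Wilson intervals. Nested genes in annotated introns have mostly 1 or 2 exons (31.8% and 33.0%), while hosts peak at 6 to 10 exons (43.1%).

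Members with many exons were rare. *CG33934* had the most, 25, and lay opposite to *CG17193*, a host of at most 3 exons, in an annotated intron of 9913 nt. *unc-13*, a synaptic vesicle priming factor, had 23 exons in an intron of *eIF4G1*, and *Ank2*, a neuronal ankyrin, had 19 in an intron of *Mcad*, both introns reaching past the host in 1 isoform. *CG6867* had 16 exons in an annotated intron of the potassium channel gene *Sh* that 57 of 123 *Sh* isoforms used, and the chloride channel gene *ClC-a* had 16 in an intron of *Lk6* that 1 of 52 isoforms used.

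Host introns were long, and long introns are often first introns. The first intron of an isoform made up 303 of 629 host introns (48.2%, 44.3 to 52.1) and 37.8% of introns without a nested gene. Among introns at least as long as the median host intron (11722 nt), the share was 52.1% (46.6 to 57.5) for 315 host introns and 52.8% (50.8 to 54.9) for 2291 introns without a nested gene. These intervals overlap, although the host introns were still longer, with medians of 24150 and 19975 nt. In annotated introns, the centre of the member was at a median of 50.1% of the intron's length from its 5′ end (quartiles 32.5 and 68.7%). Members filled a median of 13.9% of the intron. A member must fit whole, so the rule itself keeps its centre away from the intron ends.

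Annotated host introns were used by a median of 61.5% of the host's isoforms over members, and introns that reached past the host by 2.56%. Not every host isoform skipped the nested gene. Exons of 233 members overlapped exons of another isoform of the host, 165 on the opposite strand (23.6% of those members) and 59 on the same strand (17.7%). *RpL41*, a ribosomal protein gene in the sodium channel gene *NaCP60E*, and *Pfrx*, a regulator of glycolysis in *CG14200*, were such cases, with overlaps of 807 and 3487 nt.

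Several nested genes often shared an intron. Of 555 annotated host introns, 121 held 2 or more members, and in 67 of the 111 with known strands all members ran in the same direction. These strands were those of the assemblies, which were uninformative for single-exon members. Of neighbouring pairs that are not nested, 51.4% lay on opposite strands, so a shared direction is also frequent without nesting, and no test was made. Gene families made up some of these groups, and those named here were chosen after their members were seen. The first intron of *Drgx*, a homeobox gene, held the seminal fluid genes *Sfp24Ba*, *Sfp24Bb*, *Sfp24Bc* and *Sfp24Bd*, all on the opposite strand and each with 1 isoform, in heads. *tkv*, a receptor for the morphogen Dpp, held the cytochrome P450 genes *Cyp4ac1*, *Cyp4ac2* and *Cyp4ac3*, all on the opposite strand, with 4, 1 and 2 isoforms in heads and 1 of *Cyp4ac1* in embryos.

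*Ance-3* held *Vajk1*, *Vajk2* and *Vajk3* on the opposite strand, all found in heads and embryos like the host. In *CG15221*, *inaF-A*, *inaF-B*, *inaF-C* and *inaF-D*, whose locus is known for TRP channel function in photoreceptors, shared 1 end and had 2, 4, 2 and 2 isoforms in heads, with *inaF-D* alone also in embryos and ovaries (1 each). The largest annotated group, 12 members in an 83206-nt intron of *Flo2*, included *Eo*, the ecdysone oxidase gene, with 1 isoform in embryos. The longest annotated host intron, 126467 nt in the tyrosine phosphatase gene *Ptp61F*, held 6 members, among them the rhomboid proteases *rho* (4 isoforms in heads, 1 in embryos) and *ru* (1 and 1).

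The 3′ ends of spliced nested genes were searched for the canonical poly(A) signal AATAAA, on the gene's strand in the 50 nt before each end. Counted per gene, 482 of 778 spliced members (62.0%, 58.5 to 65.3) had at least 1 end with the signal, as had 6180 of 9569 genes that are not nested (64.6%, 63.6 to 65.5). Counted per distinct end, 617 of 1491 ends of members (41.4%, 38.9 to 43.9) and 31.3% (30.8 to 31.8) of 30243 ends of other genes had it. The share was thus slightly lower in members per gene and higher per end. Spans that met that of another gene without a gap were found for 10.5% of spliced members and 22.5% of spliced genes that are not nested. Their ends were not left out, and the part of this in the shares was not tested. Among genes with a single end, 71 of 128 on the host's strand (55.5%, 46.8 to 63.8), 207 of 381 on the opposite strand (54.3%, 49.3 to 59.3) and 2231 of 4350 that are not nested (51.3%, 49.8 to 52.8) had the signal, and these intervals overlap. No test was made, and a match is a description of the letters, not of a used site.

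The last 30 nt before 3′ ends are shown for nested genes in annotated introns, since on the host's strand these letters are also part of the host's primary transcript. AATAAA is in capitals, and sequence is read 5′ to 3′ on the nested gene's strand of dm6. The first 3 genes share the host's strand and the last 3 are opposite to it.
*Pfrx* in *CG14200*, chrX:19509321-19509350, plus strand: tcaaataatcaacAATAAAtacaatttatc
*Lztr1* in *CG43867*, chrX:922890-922919, minus strand: tatatgacgagaattcagAATAAAcattat
*TwdlT* in *RYa-R*, chr3R:27050975-27051004, plus strand: aAATAAAaaaacaacggtgacaaaattacg
*Vajk3* in *Ance-3*, chr2L:13944642-13944671, minus strand: tttgtaAATAAAgagtatgttgttattaaa
*Nmdar2* in *inc*, chrX:1483626-1483655, minus strand: atataaacaaacttgcAATAAAtgtgtata
*rho* in *Ptp61F*, chr3L:1468915-1468944, plus strand: aaaaaattatagataAATAAAtaaggagag
For *Pfrx*, 19 of its 23 isoforms ended at this position, and the 17 of 25 *CG14200* isoforms with the host intron ran past it. For *TwdlT*, a cuticle gene in the receptor gene *RYa-R*, both isoforms ended there, and all 3 *RYa-R* isoforms used the intron.

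Nested genes were found in fewer tissues than their hosts. The rule bears on this, since spans were pooled over all isoforms and a host with more isoforms offers more introns. Members had a median of 2 isoforms and hosts of 14, and the part of the rule in the tissue counts was not tested. Hosts were present in all 3 assemblies in 307 of 538 cases (57.1%), whereas 597 of 1069 members (55.8%) were found in heads only and 168 (15.7%) in all 3. Of genes that are not nested, 24.6% were found in heads only and 40.5% in all 3. Heads held 1004 members (93.9%), embryos 346 (32.4%) and ovaries 301 (28.2%), against 95.3%, 57.3% and 59.3% of genes that are not nested. The members' shares were near those of other genes in heads and lower in the other assemblies, whose libraries were all size-selected for long cDNA while members had short spans, and the part of this was not tested. In 772 pairs (72.2%) the nested gene was found in some but not all of the host's assemblies, in 201 (18.8%, 16.6 to 21.3) in the same ones, in 57 in more, in 25 in partly different ones and in 14 in none of the host's. The same set was shared by 38.6% (37.5 to 39.6) of neighbouring pairs that are not nested. Most members were found in heads only and most hosts in all 3, which by itself limits how often their sets can match. The part of this in the lower share was not tested, so the shares do not compare how closely genes occur together. In 1002 pairs (93.7%), the nested gene and the host intron itself were found in at least 1 common assembly. Heads alone held 1004 members and 533 of 538 hosts, so this share does not measure how closely gene and intron occur together.

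The share with the same set differed with the kind of intron, at 117 of 801 members in annotated introns (14.6%, 12.3 to 17.2) and 82 of 242 in introns that reached past the host (33.9%, 28.2 to 40.1). It did not pass the test between strands: 17.8% of 698 opposite-strand and 19.8% of 333 same-strand members (odds ratio 0.87, 95% interval 0.62 to 1.24, two-sided Fisher's exact test, adjusted p = 0.733). In annotated introns the direction turned, with 15.5% of 580 opposite-strand and 10.2% of 216 same-strand members (odds ratio 1.62, 0.97 to 2.79, adjusted p = 0.110 by the same exact test). Few isoforms lie behind most members, with only 1 isoform over all assemblies for 515 of 1069 (48.2%) against 20.2% of genes that are not nested, and the part of this in the tissue counts was not tested.

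**Figure D5:**
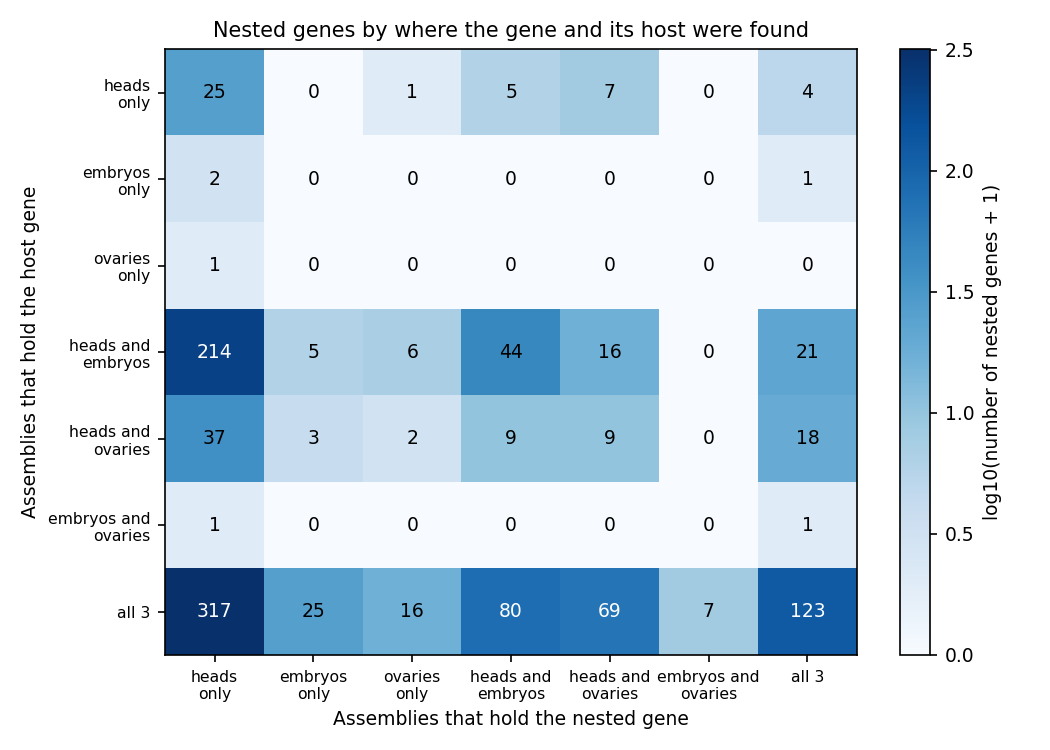
Number of nested genes by the assemblies that hold the gene (columns) and its host (rows). Numbers are counts of the 1069 members and colour is log10 of the count plus 1. Most members stand left of the diagonal in the rows of widely found hosts, with 317 found in heads only whose hosts are in all 3 assemblies.

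In ovaries, nested genes were more often found where the host was. With the host present, 245 of 718 members were found (34.1%, 30.7 to 37.7), and with the host absent, 56 of 351 (16.0%, 12.5 to 20.2), an odds ratio of 2.73 (95% interval 1.96 to 3.85, two-sided Fisher's exact test, adjusted p = 1.09e-09). With annotated introns only, the odds ratio was 2.22 (1.49 to 3.37, Fisher's exact test, adjusted p = 8.60e-05). The call was lost with 1 member per host, where the odds ratio was 1.57 (Fisher's exact test, adjusted p = 0.0844). With annotated introns and 1 member per host it was 1.54 (same exact test, adjusted p = 0.180). Neighbouring pairs that are not nested had an odds ratio of 4.04 (3.68 to 4.43) in ovaries.

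In embryos, the shares were 307 of 948 (32.4%) with the host and 39 of 121 (32.2%) without it, with an odds ratio of 1.01 (0.66 to 1.55, two-sided Fisher's exact test, adjusted p = 1), against 1.60 (1.46 to 1.75) for neighbouring pairs. In annotated introns the embryo ratio lay below 1, at 0.67 (0.42 to 1.08, same exact test, adjusted p = 0.115). In heads, hosts were absent for only 6 members, all 6 of which were found, so the exact test could show little (adjusted p = 1). The difference between tissues was not tested. Some absent members were present in the assembly under another gene ID: at least 50% of the exon bases of an absent member were covered in this way on the same strand for 18 of 65 absences in heads, 68 of 723 in embryos and 17 of 768 in ovaries.

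Members without their host give examples in each tissue. In heads, *Arr2*, the photoreceptor arrestin, had 7 isoforms and none elsewhere, while *Pex7*, a peroxisomal import receptor in whose annotated intron it lies, had 1 isoform, in embryos. *Timp*, an inhibitor of metalloproteinases, had 5 isoforms in heads with its host *CG12420* found in embryos only. The host intron of *Timp* was not annotated and reached past the end of *CG12420*, which had 1 isoform. In embryos, *Snmp2* had 5 isoforms, *CG45065* had 4 and *Fim*, which encodes an actin bundler, had 3, while *CG32373*, *Flo2* and *CG5445* were absent. In ovaries, *vlc* had 5 isoforms without *scaf*, *sina* 3 without *Rh4*, and *CG5541* and *be* 2 each without *hiw*. The intron that held *vlc* was not annotated, reached past *scaf* and was found in 1 of 14 *scaf* isoforms.

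The members with the most isoforms lay mostly in introns that reached past the host. *anne* had 103 isoforms (63 in heads, 28 in embryos, 12 in ovaries) in an intron of 1 *Ank* isoform, followed by *CG1674* in *Ank* (90), *ClC-a* in *Lk6* (86) and *Ank2* in *Mcad* (75). Of the 10 members with the most isoforms, the one in an annotated intron was *Su(Tpl)*, an elongation factor gene of the ELL family, with 26, 15 and 12 isoforms in heads, embryos and ovaries. It lay on the same strand in a 21428-nt annotated intron that all 16 isoforms of the chromatin remodeller *Mi-2* used. In annotated introns, in a choice made after the values were seen, *mthl10* in *Ptpmeg* had 26 isoforms, *Pfrx* in *CG14200* 23, the glial receptor gene *moody* in *CG4313* 21 and the NMDA receptor subunit gene *Nmdar2* in *inc* 18.

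Lists of gene families differed in how many of their genes were nested. This is described without a test, beside 9.02% for all genes and 6.76% in annotated introns. The lists were chosen with earlier results of these data known, which can raise or lower their shares. Among testis genes 10 of 40 were members (25.0%, 14.2 to 40.2), 8 of them in annotated introns, such as *Mst33A* in *kek2* and *whip*, *cola* and *boly* in *pdm3*, and all 10 were found in heads and in no other assembly. Among cuticle genes 16 of 84 were members (19.05%, 12.1 to 28.7), 8 of them the Tweedle genes in the *scrib* intron. The cuticle genes in annotated introns were 8 of 84 (9.52%, 4.91 to 17.7), an interval that includes the 6.76% of all genes. C-type lectins gave 4 of 11, 2 of them in annotated introns, chemosensory receptors 2 of 13, none of them in an annotated intron, and genes known only by a CG number 596 of 4823 (12.4%, 11.5 to 13.3).

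Other lists held few members. These were 2 of 89 ribosomal protein genes (2.25%, 0.62 to 7.83), 1 of 35 odorant-binding protein genes, 1 of 25 serine protease genes, 1 of 28 antimicrobial and Bomanin peptide genes (*Mtk* in *Stacl*) and 6 of 81 genes of mitochondrial respiratory subunits. In the last list, 5 lay in annotated introns, *ATPsynCF6L*, *ND-51L2*, *ND-B14.5AL*, *ND-49L* and *UQCR-6.4L*, all of them named as variants of a subunit. Non-coding RNAs gave 7 of 56.

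As hosts, 29 of 123 adhesion and axon guidance genes (23.6%, 16.9 to 31.8), 16 of 98 ion channel and receptor genes (16.3%, 10.3 to 24.9) and 15 of 119 transcription factor genes (12.6%, 7.79 to 19.8) were listed, beside 4.54% of all genes. Examples in annotated introns were *Con*, *dpr6* and *Fas3* among adhesion genes, *Sh* and *Shab* among channels and *pdm3*, *sbb* and *Eip75B* among transcription factors. The lists are approximate, since the adhesion list counted the tyrosine phosphatase gene *Ptp61F* and the transcription factor list counted *timeout*. Hosts are long genes by construction of the rule, and length was not matched.

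At the limit of the rule, 42 members came within 50 nt of an intron end. The nearest were *Map60* in *clos* and *CG8366* in *Strn-Mlck*, both 2 nt from the 5′ splice site. A further 9 genes reached over an intron end by at most 50 nt and were not counted, from *CG34308* in *timeout* (4 nt) and *CG42759* in *TAF1B* (16 nt) to *DNAlig3* in *Sol1* (49 nt). Some spans met that of another gene without a gap, as those of *CG13029* and *sinah* did. This held for 90 members (8.42%) and 21.0% of genes that are not nested. How these ends arose was not tested.

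Nested genes that are hosts themselves numbered 10. In 2 of them both introns were annotated: *Teh4* in *CG18675* held *VhaM9.7-c*, a subunit of the vacuolar ATPase, and *CG43394* in *PAPLA1* held *CG31606*. The others, among them *beat-VII* in *scrib* with the cuticle gene *Tb* and *5-HT1B* in *tn* with *CG43351*, lay in introns that reached past their host. Against the annotation, 815 of the 926 genes of the assemblies that lie in an annotated intron by their annotated spans were members (88.0%, 85.8 to 89.9).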

How the data were processed

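Oxford Nanopore cDNA reads of all replicates of a tissue were merged by the authors, mapped to dm6 with minimap2 and built into isoforms with FLAIR, with short-read splice junctions and promoter-database 5′ ends. The deposited values of the 3 assemblies are genomic positions of transcripts and exons, with no other measure and no read number. Isoforms whose 5′ end was missing from the promoter database were therefore not kept. The study describes a filter and correction of 3′ ends with poly(A)-tail data, but the sources used here do not state whether the deposited files come before or after that step.

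Spans were pooled over isoforms per FlyBase ID and compared with all introns of other genes (Python 3.11.15, scipy 1.17.1). Introns, strands and biotypes were compared with Ensembl release 115. Search code was tested on simulated gene models. Neighbours were adjacent pairs of genes that were not nested, had isoforms on 1 strand only and had spans that did not overlap. Their strand was that of the assemblies, and single-exon genes were included. Shares carry 95% Wilson intervals, for counting error only. Of 5 Fisher's exact tests, p-values were Benjamini-Hochberg adjusted with a threshold of 0.05. They treat members as independent, although members share hosts. Named genes were those with the most nested genes, isoforms or exons, those in the longest introns, the most isoforms without the host, the nearest intron ends, or membership of a textbook pair, and other named genes were chosen after their values were seen. Members and lists were chosen with earlier results of these data known.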

Additional observations from a re-analysis of the deposited data

How the results depend on the processing

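Over 10 results and 16 alternative settings, 73 of 121 alternative values stayed within the limits set. No paired analysis was possible because the assemblies pool all replicates of a tissue, and for the same reason no replicate could be left out. The number of nested genes fell from 1069 to 538 with 1 gene per host, 489 with annotated introns in addition, 552 with introns of at most 20 kb, 159 in embryos alone and 128 in ovaries alone. The opposite-strand share was 72.9% in annotated introns, 71.6% in introns of 2 or more isoforms, 72.6% with 1 gene per host, 73.4% with both limits, 77.6% in embryos, 72.7% in ovaries, 75.8% in introns of at most 20 kb and 72.7% for spliced genes. With annotated strands it was 72.0% with 1 gene per host and 72.5% with annotated introns in addition. The single-exon share was 31.6%, 31.1%, 30.7%, 32.7%, 23.3%, 21.1% and 31.0% in the first 7 of these settings, in that order. The first-intron share was 55.9% without exon overlap, 52.6% with the longest intron as host, 38.4% in embryos and 38.8% in ovaries. The share with the same set of assemblies was 14.5% in annotated introns, 14.1% in introns of 2 or more isoforms, 15.8% with 1 gene per host, 16.3% in introns of at most 20 kb, 13.9% with annotated introns and 1 gene per host and 22.1% for spliced genes.

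The embryo odds ratio of 1.01 turned below 1 in annotated introns (0.67), introns of 2 or more isoforms (0.75), with the annotated span also inside (0.98), 1 gene per host (0.91), the longest intron (0.93), introns of at most 20 kb (0.92), annotated introns and 1 gene per host (0.84) and spliced genes (0.87), and passed the test under none of these. The ovary ratio was 1.57 with 1 gene per host and 1.54 with annotated introns in addition, neither past the threshold. It kept its call in the other settings run, from 2.22 in annotated introns to 3.04 for spliced genes. The ratio of the same set by strand turned above 1 in annotated introns (1.62), introns of 2 or more isoforms (1.34), with 1 gene per host (1.09), introns of at most 20 kb (1.24) and annotated introns with 1 gene per host (1.34, and 1.16 with annotated strands), again never past it. Single-exon share by strand kept its direction and call under every alternative run. The head ratio could not be computed for introns of 2 or more isoforms, where no host was absent. The settings with annotated introns and 1 gene per host together, annotated strands or spliced genes were chosen after seeing the data. The cause of these changes was not tested. Without read numbers, depth limits every statement on absence.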
